A study of Mus musculus with 3 samples.

Results

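Stretches of mouse chromosomes 2, 7 and 13 that are rich in KAP1 ChIP-seq regions (4 blocks) were examined in embryonic stem (ES) cells, the pluripotent cells of the early embryo kept in culture. They are chromosome 2 from 175 to 178 Mb, chromosome 7 from 9 to 11 Mb, chromosome 13 from 62 to 63 Mb (the proximal chromosome 13 block) and chromosome 13 from 65 to 67 Mb (the distal chromosome 13 block), all in build mm9. A region belonged to a block when its listed start lay inside it. Together the blocks held 1932 of the 88857 regions of the series: 581 of 45956 control regions (1.26%), 489 of 22031 ZFP57 regions (2.22%) and 862 of 20870 KAP1 regions (4.13%). The blocks were chosen by the counts of listed regions per 1 Mb window, for holding more KAP1 than control regions. Counts of KAP1 against control regions are therefore a description and were not tested. The same holds for the overlaps and distances between lists that rest on these regions.

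Each of the 3 lists comes from 1 library, so there is no replicate spread, and no list states its sequencing depth. The control was a ChIP with an antibody against the HA tag in ES cells that carried no transgene. The ZFP57 library was made with the same antibody in ES cells expressing HA-tagged ZFP57. For the KAP1 library, chromatin was isolated with an antibody to KAP1 (its RBCC part) from the E14 ES line, again without a transgene, and so differs from the control in antibody as well as in target. The labels name a line for the KAP1 library alone and do not give the promoter of the transgene. All 3 cultures were kept in normal ES cell medium. The lists give a chromosome, a start and an end, with no height or score, and every region is 150 bp wide. Intervals below are 95% intervals that cover counting error alone. They take each region as independent of its neighbours, which clustered regions are not.

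KAP1, also known as TRIM28, does not bind DNA by itself. It is brought to its sites by KRAB zinc finger proteins, of which ZFP57 is one, and it recruits the histone methyltransferase SETDB1 and heterochromatin protein HP1. In ES cells this system is known for silencing endogenous retroviruses, and KAP1 is also known to occupy the genes that encode KRAB zinc finger proteins. Those genes lie in tandem clusters that grew by duplication, and mouse chromosomes 2, 7 and 13 each carry such clusters. Gene positions and sequence of build mm9 were not used here, so no region below is assigned to a gene and no sequence is printed.

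KAP1 regions outnumbered control and ZFP57 regions in each of the 4 blocks. In the chromosome 2 block 35 control, 34 ZFP57 and 74 KAP1 regions were listed, or 2.11 KAP1 regions per control region (interval 1.40 to 3.26). In the proximal chromosome 13 block the ratio was 2.07 (1.51 to 2.85), in the chromosome 7 block 1.53 (1.29 to 1.83) and in the distal chromosome 13 block 1.23 (1.05 to 1.45), the last from 273 control, 208 ZFP57 and 337 KAP1 regions. Among these ratios only those of the proximal and distal chromosome 13 blocks have intervals that do not overlap. The whole lists gave 0.454 KAP1 regions per control region. Against ZFP57 the ratios rest on the same KAP1 counts that chose the blocks, and they too are a description: 2.18 KAP1 regions per ZFP57 region on chromosome 2 (1.43 to 3.37), 2.25 in the proximal chromosome 13 block (1.63 to 3.14), 1.70 on chromosome 7 (1.42 to 2.05) and 1.62 in the distal chromosome 13 block (1.36 to 1.94), where the whole lists gave 0.947. The intervals of the 4 ratios to ZFP57 overlap one another, so these counts do not order the blocks.

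The block edges are set by 1 Mb windows, and the counts just inside and just outside them varied from edge to edge. Before the chromosome 2 block, the window from 174 to 175 Mb listed 29 KAP1 regions beside 29 control and 25 ZFP57 regions, more than the first windows inside. Inside it, the windows from 175 to 176 Mb and from 176 to 177 Mb held 2 and 5 KAP1 regions, and the window from 177 to 178 Mb held 67. The next window, from 178 to 179 Mb, held 12 control regions and 1 KAP1 region. The chromosome 2 block is thus almost entirely its last 1 Mb. Beside the chromosome 7 block, the windows from 8 to 9 Mb and from 11 to 12 Mb held 17 and 29 KAP1 regions beside 10 and 19 control regions, against 211 and 114 KAP1 regions beside 133 and 79 control regions in the windows inside. Numbers dropped at these edges, but KAP1 regions outnumbered control regions on both sides of them. Before the proximal chromosome 13 block, the window from 61 to 62 Mb listed 13 KAP1 regions beside 12 control regions. The 2 chromosome 13 blocks are parted by windows with 0 KAP1 regions beside 19 control regions (63 to 64 Mb) and 3 KAP1 regions beside 14 control regions (64 to 65 Mb). Inside the distal block the windows held 121 and 216 KAP1 regions, and the window after it, from 67 to 68 Mb, held 14.

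In steps of 100 kb the regions were far from evenly spread. On chromosome 2, 15 of 30 steps had no region of any list, and the 5 fullest steps held 91.9% of the KAP1 regions. The step from 177.0 to 177.1 Mb held the most, with 11 control, 13 ZFP57 and 23 KAP1 regions, and the step from 177.3 to 177.4 Mb held 5, 7 and 17. Both exceeded control by 12 regions, the largest excess of the block. Between them, the step from 177.1 to 177.2 Mb listed 11 KAP1 regions beside 4 control and 3 ZFP57 regions. The step from 177.2 to 177.3 Mb held 1 control region and nothing else, and it is among 5 steps of the block where control outnumbered KAP1, each by 1 region. The longest stretch without a region of any list ran over 840 kb, from 175809416 to 176649012.

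**Figure D1:**
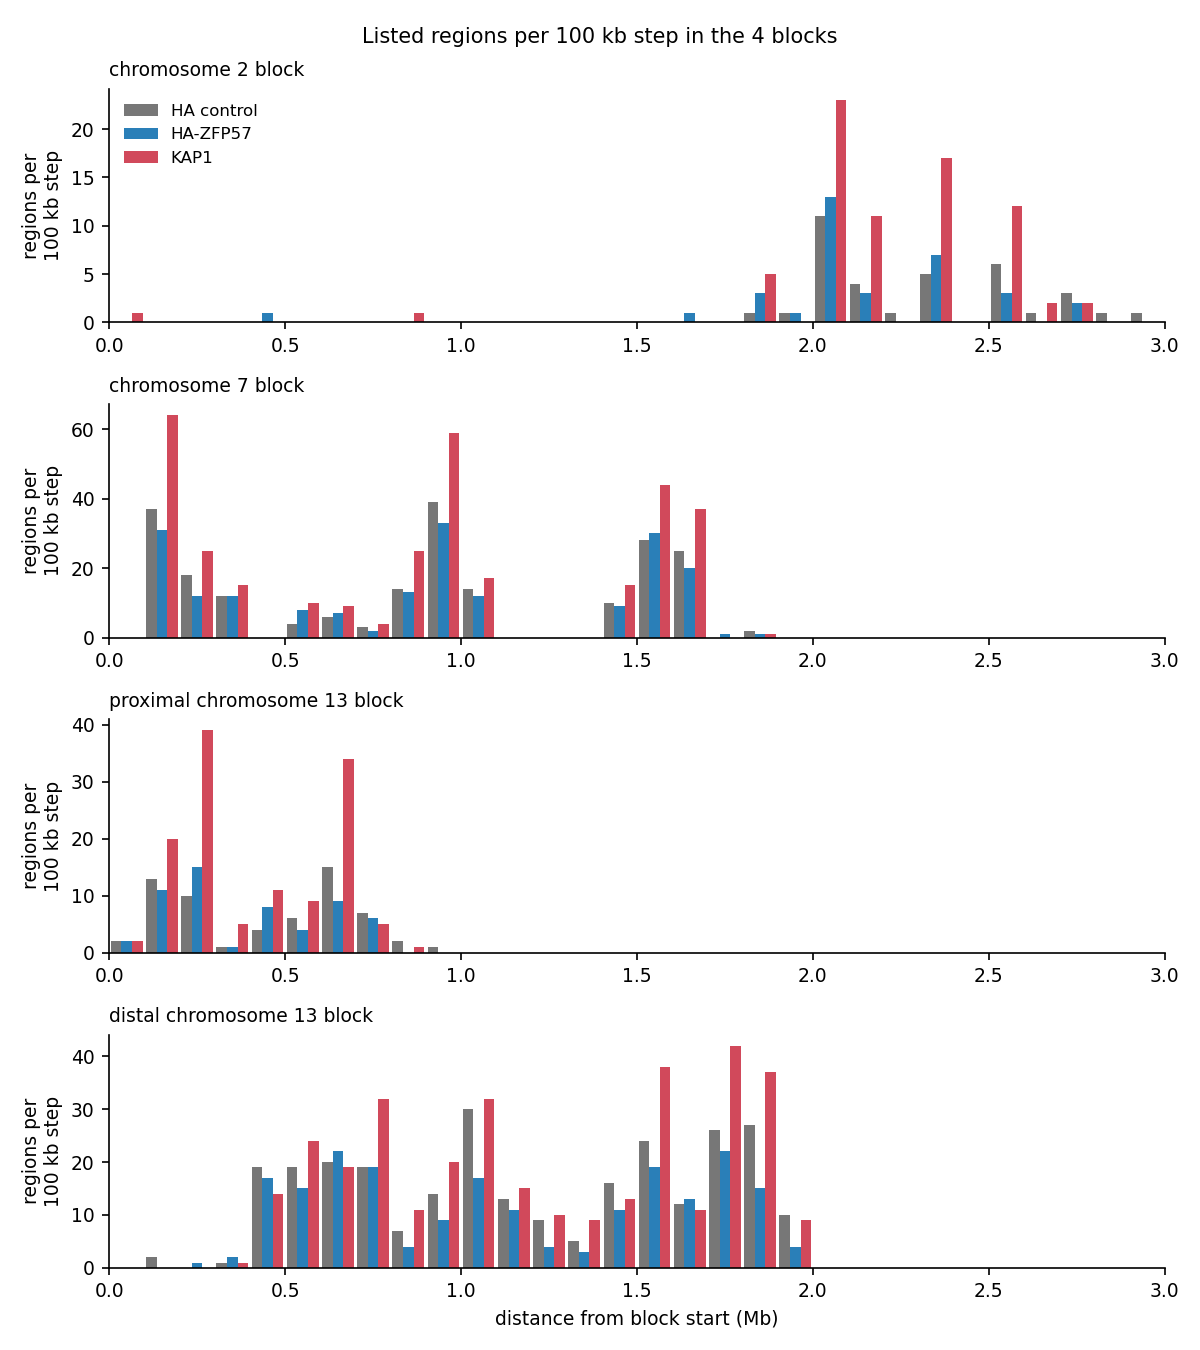
Number of listed regions (vertical axis) per 100 kb step, plotted by distance from the block start in Mb, for the control (grey), ZFP57 (blue) and KAP1 (red) libraries, 1 library each. KAP1 bars reach 23 on chromosome 2, 64 on chromosome 7, 39 in the proximal and 42 in the distal chromosome 13 block, and the chromosome 7 panel shows 3 separate peaks.

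On chromosome 7 the regions formed 3 peaks. An empty stretch lay between the later peaks, while the gap between the first and second was empty only in part. Its steps from 9.5 to 9.6, 9.6 to 9.7 and 9.7 to 9.8 Mb held 10, 9 and 4 KAP1 regions. The fullest step, from 9.1 to 9.2 Mb, listed 64 KAP1 regions beside 37 control and 31 ZFP57 regions and had the largest KAP1 excess, 27. The step from 9.9 to 10 Mb held 59 KAP1, 39 control and 33 ZFP57 regions, and the step from 10.5 to 10.6 Mb held 44, 28 and 30. KAP1 had the most regions in each peak, and ZFP57 numbers stayed close to control. Between the later peaks no list had a region over 389 kb, from 10054731 to 10443580, and a second empty stretch of 218 kb began at 9335387. The step from 10.8 to 10.9 Mb, with 2 control regions and 1 of each other list, was the single step in which control outnumbered KAP1.

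In the proximal chromosome 13 block 2 steps carried most of the KAP1 excess. In the step from 62.2 to 62.3 Mb there were 39 KAP1, 10 control and 15 ZFP57 regions, an excess of 29 over control and the largest of any step in the 4 blocks. In the step from 62.6 to 62.7 Mb there were 34, 15 and 9. The next step, from 62.7 to 62.8 Mb, listed 5 KAP1, 7 control and 6 ZFP57 regions, so the excess stopped within 100 kb. No empty stretch of this block exceeded 62.6 kb.

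The distal chromosome 13 block was the most even. Its 5 fullest steps held 53.7% of the KAP1 regions, compared with 70.5% on chromosome 7 and 89.7% in the proximal chromosome 13 block. In the step from 66.7 to 66.8 Mb there were 42 KAP1, 26 control and 22 ZFP57 regions, with the largest excess, 16. In the step from 65.4 to 65.5 Mb control led, with 14 KAP1, 19 control and 17 ZFP57 regions. The step after it held 24 KAP1, 19 control and 15 ZFP57 regions.

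KAP1 regions outnumbered control regions in 8 of 13 occupied steps on chromosome 2, 12 of 13 on chromosome 7, 6 of 10 in the proximal and 11 of 18 in the distal chromosome 13 block, where a step counts as occupied if it holds a KAP1 or control region. Over the genome this was so in 11.4% of 15800 occupied steps. Among steps with at least 10 KAP1 regions, those with at least 2 times as many KAP1 as control regions numbered 4 of 4 on chromosome 2, 1 of 10 on chromosome 7, 3 of 4 in the proximal and 0 of 14 in the distal chromosome 13 block. Genome-wide they made up 6.31% of 333 such steps. Both counts use the contrast that chose the blocks and support nothing further.

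The chromosome 7 block repeats itself, which bears on every count from it. The 96 KAP1 regions listed between 9134295 and 9335386 were laid out almost as the 97 listed between 9853484 and 10054730. Of the KAP1 regions in the first stretch, 85 (88.5%) had a partner in the second within 100 bp of a shift of 719269 bp. The shifts of these pairs ran from 719189 to 719345 bp, with a median of 719274 bp. The same held in the other libraries: 58 of 63 control regions (92.1%) and 49 of 54 ZFP57 regions (90.7%) had a partner, with medians of 719274 bp in both. Counted within 5 bp, 38 pairs of KAP1 starts shared 1 shift near 719269 bp, and the next most frequent distance in the block joined 11 pairs. For control and ZFP57 the numbers were 25 and 7 in each. The match within 100 bp missed part of the repeat. Control regions lay 1545, 7892 and 10226 bp into the first stretch and 1945, 8306 and 10640 bp into the second. That shift is larger than any in the range above. The KAP1 pair at 719189 bp is a likely mismatch. Its first region, at 9134295, lay 902 bp from a control and 1626 bp from a ZFP57 start, and so did the region at 9853884. The shares with a partner thus likely understate the repeat.

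**Figure D2:**
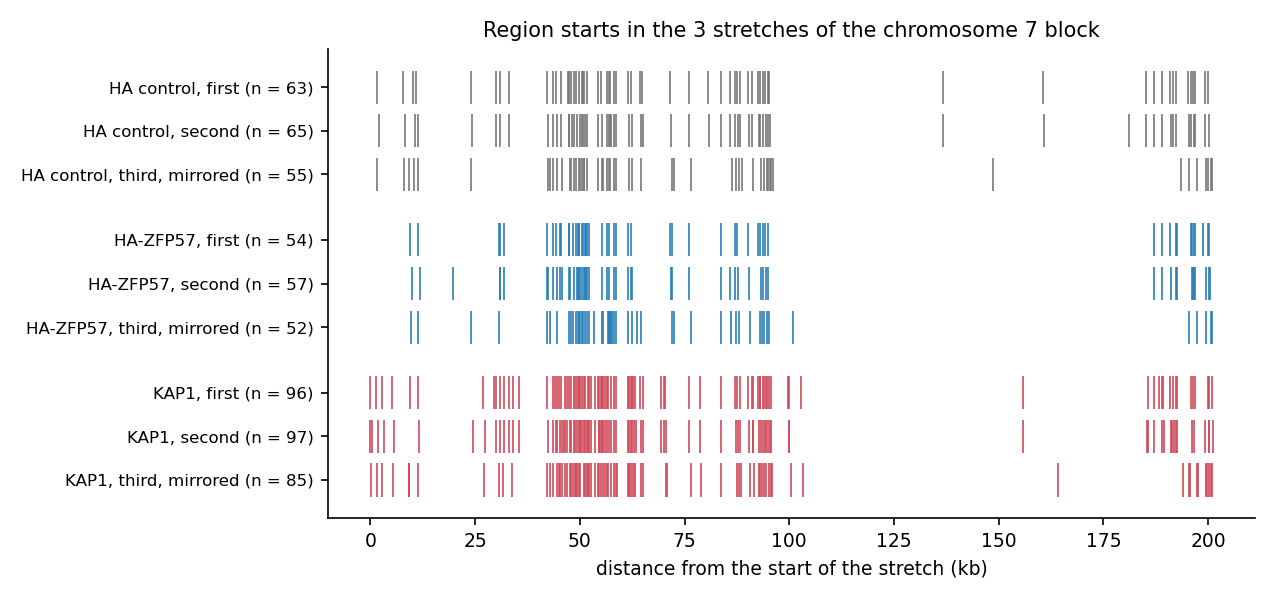
Each vertical line is the start of 1 listed region in a 201 kb stretch of the chromosome 7 block, placed by its distance in kb from the start of the stretch, with control in grey, ZFP57 in blue and KAP1 in red. The first and second stretches have nearly the same lines in each library (96 and 97 for KAP1). The mirrored stretch, with 85 KAP1 regions, is drawn in reverse and matches them in part, with some groups of lines displaced.

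At a fixed mirror point, another stretch, from 10450436 to 10651517, matched part of the same layout in reverse. When its positions were mirrored, 45 of its 85 KAP1 regions (52.9%) fell within 100 bp of the mirrored place of a region of the second stretch. For control this was 26 of 55 (47.3%) and for ZFP57 22 of 52 (42.3%). At the best mirror point 49 KAP1 pairs lay within 100 bp, counting every pair, and 30 did at the best point elsewhere. Against the first stretch the numbers were 52 and 32. For control the second stretch gave 27 pairs against 15 elsewhere, and for ZFP57 24 against 18, a narrow margin. A match within 100 bp of a single mirror point leaves out regions displaced by more. KAP1 starts lay 188932, 189259 and 190986 bp into the first stretch and, with like spacing, 197382, 197709 and 199436 bp into the mirrored one. Others lay at 70103 and 70462 bp against 70522 and 70880 bp. These shares and margins therefore do not measure how much of the layout recurs. The 3 stretches held 278 of the 325 KAP1 regions of the block (85.5%), 183 of 212 control regions (86.3%) and 163 of 191 ZFP57 regions (85.3%).

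Partners in the first and second stretch mostly had the same overlap with the other lists. This was so for 81 of 85 KAP1 pairs (95.3%), 47 of 49 ZFP57 pairs (95.9%) and 52 of 58 control pairs (89.7%). Of the 31 paired KAP1 regions of the first stretch that overlapped neither other list, 30 had a partner that did not either. Regions of the stretches are thus not independent observations. How reads that map to several places were treated is not given in the sources used here, and whether the same reads were placed in both stretches was not tested. With the second and the mirrored stretch left out, 92 control, 82 ZFP57 and 143 KAP1 regions remained, and the ratio of KAP1 to control was 1.55 (1.19 to 2.04). Outside all 3 stretches it was 1.62 (0.999 to 2.67), from 29 control and 47 KAP1 regions. The bounds of the stretches cut through the repeat, so the regions outside them still include likely copies. The KAP1 region at 9133895, just before the first stretch, had its nearest control and ZFP57 starts 502 and 1226 bp away. So did the region at 9853484, where the second stretch begins. The ratio outside the stretches is thus not free of the repeat.

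In the other blocks no shift joined more than 7 pairs of KAP1 regions within 5 bp. On chromosome 2, 4 KAP1 regions and 3 ZFP57 regions recurred at a shift of 310193 bp within 5 bp, and 1 control region did, where the next most frequent distances joined 3 KAP1 and 2 ZFP57 pairs. The KAP1 regions lay between 177028015 and 177030798 and again between 177338208 and 177340992. In the proximal chromosome 13 block the most frequent KAP1 distance joined 5 pairs and the next 4, and in the distal block both joined 7. The distal block also had 7 control pairs at 1 shift (5 at the next best) and 8 KAP1 pairs at 1 mirror point (6 at the next best). In these 3 blocks the leading shift or mirror point was at most 2 pairs above the next best, so none is read as a repeated layout at 5 bp. On chromosome 7 the leading mirror point at 5 bp joined 10 KAP1 pairs against 9, and it stood out within 100 bp. The first and second stretches can each give a mirror point there. The leading sum of starts was 20505030 for KAP1 and 19785725 for control. The next best point may therefore belong to the other copy, and this margin is not comparable with those of the other blocks. Mirror points within 100 bp were not sought in the other blocks, so a looser mirrored layout there was not tested. Exact distances between neighbouring starts recurred at most 4 times on chromosome 7 (350 bp in the KAP1 list and 238 bp in the ZFP57 list). In the distal chromosome 13 block 101 bp was seen 3 times in the KAP1 list, and in the chromosome 2 and proximal chromosome 13 blocks no KAP1 distance was seen more than 2 times.

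KAP1 had the shortest median spacing in all 4 blocks. The median distance from one KAP1 start to the next was 628.5 bp on chromosome 7 (interval 558 to 769), where control regions lay 1066 bp (816 to 1662) and ZFP57 regions 930 bp (691 to 1305) apart. In the proximal chromosome 13 block it was 1820 bp (1343 to 2467) for KAP1, 7658.5 bp (2779 to 11574) for control and 7542 bp (2050 to 13912) for ZFP57. These 2 blocks had KAP1 intervals below those of control. For the distal chromosome 13 block the medians were 1238, 1741 and 2132 bp for KAP1, control and ZFP57, and for chromosome 2 they were 3244, 15130 and 5982 bp, with overlapping KAP1 and control intervals in both blocks. Shorter distances follow in part from more regions in the same span.

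**Figure D3:**
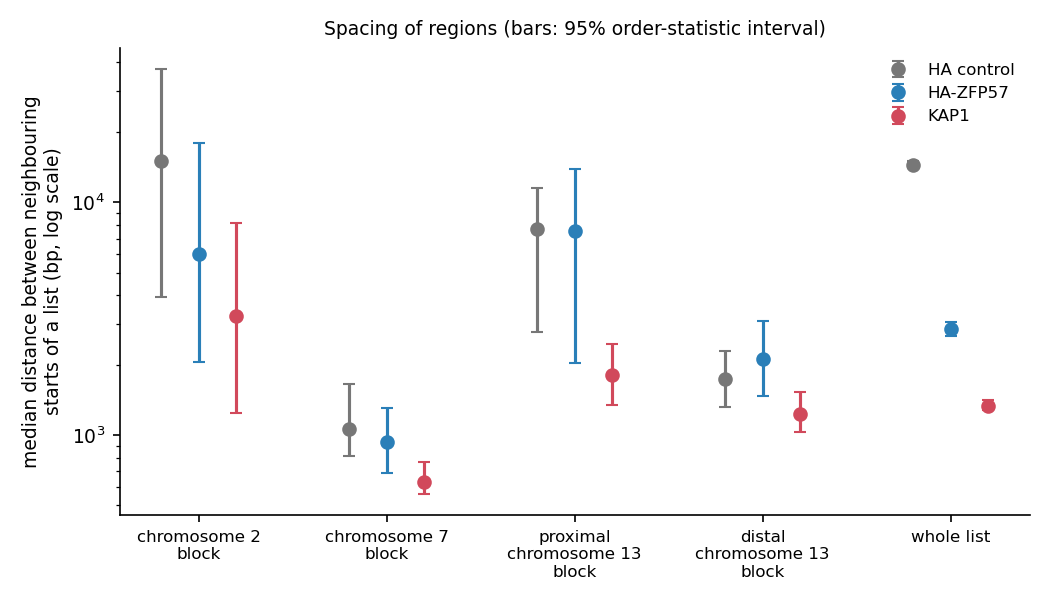
Median distance in bp (log axis) between neighbouring starts of the same list, for control (grey), ZFP57 (blue) and KAP1 (red) in each block and in the whole lists, with 95% order-statistic intervals as bars. The KAP1 point is the lowest in every block, from 628.5 bp on chromosome 7 to 3244 bp on chromosome 2, against 1341 bp in the whole KAP1 list.

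Set beside the whole lists, spacing separated the libraries differently from block to block. Over the genome the median was 14547 bp for control, 2868 bp for ZFP57 and 1341 bp for KAP1. On chromosome 2 the medians were uncertain: 15130 bp for control (interval 3916 to 37462) and 3244 bp for KAP1 (1242 to 8172). Both intervals hold the median of the whole list. On chromosome 7 all 3 libraries were denser than their lists, and 63.3% of KAP1 distances, 51.1% of ZFP57 distances and 48.3% of control distances were under 1 kb. In the same order, the shares in the whole lists were 45.4%, 37.7% and 21.4%. In the proximal chromosome 13 block they were 34.4%, 16.4% and 16.7%, below the whole list in each library.

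The blocks differed in how their KAP1 regions overlapped the other lists. In the chromosome 2 and proximal chromosome 13 blocks few KAP1 regions lay in all 3 lists: 5 of 74 (6.76%, interval 2.23 to 15.1%) and 12 of 126 (9.52%, 5.02 to 16.0%). In the chromosome 7 and distal chromosome 13 blocks the share was 116 of 325 (35.7%, 30.5 to 41.2%) and 98 of 337 (29.1%, 24.3 to 34.2%). In the whole KAP1 list 36.8% of regions overlapped both other lists by at least 1 bp. The intervals of the former blocks lie wholly below those of the latter, and chromosome 7 is close to the list. With at least 75 bp of overlap the share was 2.70% on chromosome 2, 22.5% on chromosome 7 and 18.7% in the distal chromosome 13 block, against 26.7% in the whole list. With midpoints within 500 bp it was 55.7% on chromosome 7, 46.6% in the distal and 19.0% in the proximal chromosome 13 block, against 51.2%. Whether the blocks differ beyond the clustering of regions was not tested.

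**Figure D4:**
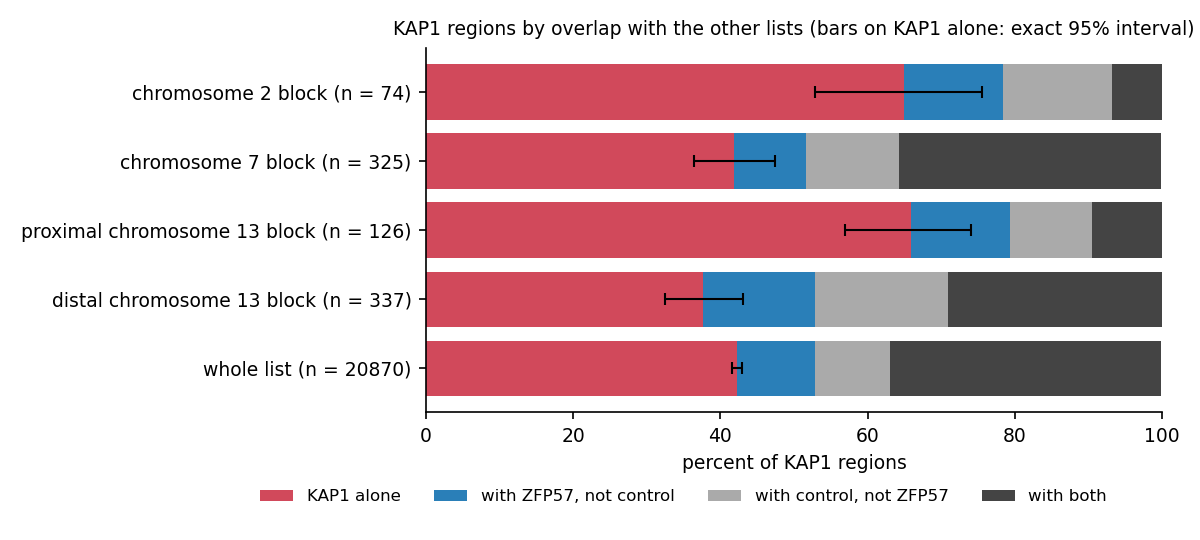
Share of KAP1 regions in percent (horizontal axis) that overlapped neither other list (red, with its exact 95% interval), ZFP57 alone (blue), control alone (light grey) or both (dark grey), for the 4 blocks and the whole KAP1 list. The red share is 64.9% on chromosome 2 and 65.9% in the proximal chromosome 13 block, against 42.2% in the whole list.

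ZFP57 regions ordered the blocks in the same way. On chromosome 2, 5 of 34 (14.7%, or 2.94% with at least 75 bp of overlap) lay in all 3 lists and in the proximal chromosome 13 block 12 of 56 (21.4%), compared with 117 of 191 (61.3%) on chromosome 7 and 96 of 208 (46.2%) in the distal chromosome 13 block, where the whole ZFP57 list gave 34.9%. ZFP57 regions that overlapped neither other list made up 41.2% on chromosome 2, 41.1% in the proximal chromosome 13 block, 15.7% on chromosome 7 and 13.9% in the distal chromosome 13 block. The whole list gave 41.2%, so the chromosome 2 and proximal chromosome 13 blocks held ZFP57 regions of their own at the share seen genome-wide. ZFP57 regions shared with KAP1 but not with control numbered 10 (29.4%), 16 (28.6%), 26 (13.6%) and 50 (24.0%) in the chromosome 2, proximal chromosome 13, chromosome 7 and distal chromosome 13 blocks, against 9.80% of the whole list. KAP1 regions are denser in these blocks than in the genome, which by itself gives more overlap.

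Control regions, the background of the HA ChIP, were also partly shared. Those that overlapped neither other list made up 15 of 35 on chromosome 2 (42.9%), 31 of 61 in the proximal chromosome 13 block (50.8%), 75 of 273 in the distal chromosome 13 block (27.5%) and 41 of 212 on chromosome 7 (19.3%). In the whole control list the share was 71.9%. Control regions in all 3 lists made up 52.4% on chromosome 7, 34.1% in the distal and 19.7% in the proximal chromosome 13 block and 14.3% on chromosome 2 (5.71% with at least 75 bp of overlap), against 16.6% of the list. Control regions that overlapped KAP1 but not ZFP57 accounted for 28.6% on chromosome 2 and 17.9% on chromosome 7. The proximal and distal chromosome 13 blocks gave 21.3% and 23.1%, and the whole control list 4.57%. A high KAP1 count relative to control was the criterion for picking the blocks. That alone raises the overlap of control with KAP1 and lowers the share that overlaps neither list. The contrasts of control shares with the whole list are therefore a description and were not tested.

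Where KAP1 and another list overlapped, the share of starts within 50 bp varied between blocks. The median offset between overlapping KAP1 and ZFP57 starts was 25 bp in the proximal chromosome 13 block (29 KAP1 regions), 36 bp in the distal block (149), 37 bp on chromosome 7 (148) and 73 bp on chromosome 2 (15). Between KAP1 and control it was 53.5, 43, 41 and 40.5 bp in the same order of blocks. In the proximal chromosome 13 block 21 of 29 KAP1 regions on ZFP57 (72.4%) and 13 of 26 on control (50%) were offset by 50 bp or less, and so were 7 of 15 on ZFP57 (46.7%) on chromosome 2. The whole KAP1 list gave medians of 25 bp to ZFP57 and 34 bp to control.

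KAP1 regions with no control or ZFP57 start within 150 bp were counted as KAP1-only. They numbered 48 of 74 on chromosome 2 (64.9%, interval 52.9 to 75.6%) and 81 of 126 in the proximal chromosome 13 block (64.3%, 55.3 to 72.6%), where 2 more regions overlapped neither list but had a start exactly 150 bp away. They numbered 136 of 325 on chromosome 7 (41.8%, 36.4 to 47.4%) and 127 of 337 in the distal chromosome 13 block (37.7%, 32.5 to 43.1%). The share in the whole KAP1 list was 42.2%. On chromosome 7 the share was 43.0% without the second stretch and 45.5% without the second and the mirrored stretch, both within the interval above. Outside all 3 stretches it was 57.4%, from few regions (27 of 47), some of them likely copies of regions inside the stretches. In the distal chromosome 13 block KAP1 regions outnumbered control regions with a KAP1-only share close to that of the whole list. The chromosome 2 and proximal chromosome 13 blocks also had the larger shares at a distance of 1000 bp, with 39.2% on chromosome 2 and 46.0% in the proximal chromosome 13 block against 15.1% on chromosome 7 and 21.7% in the distal block, where the whole list gave 27.9%.

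**Figure D5:**
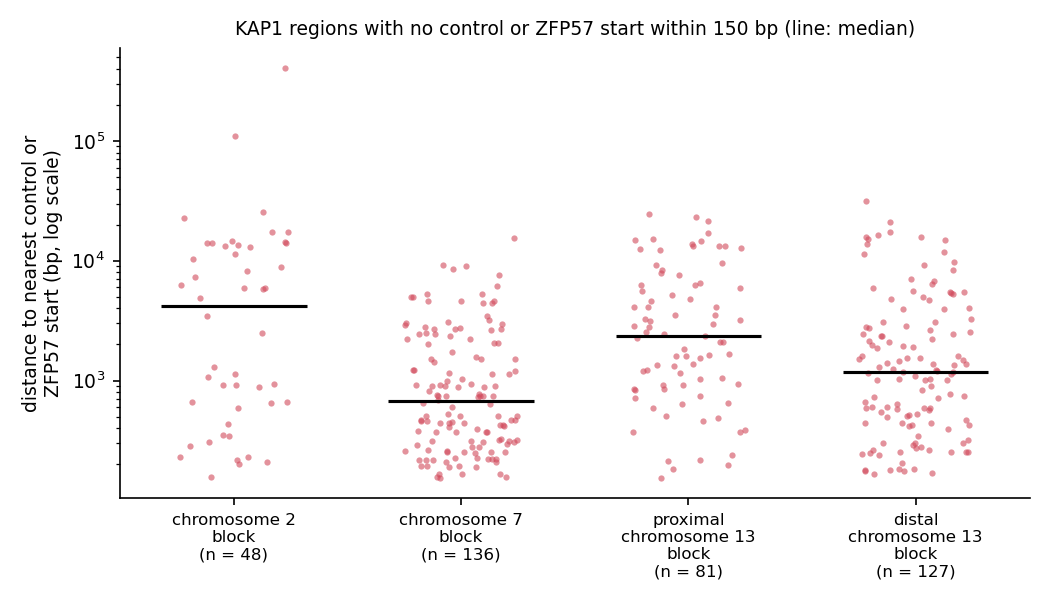
Distance in bp (log axis) from each KAP1-only region to the nearest control or ZFP57 start, 1 point per region, with the median as a line. Medians are 4186 bp on chromosome 2, 671 bp on chromosome 7, 2358 bp in the proximal and 1175 bp in the distal chromosome 13 block.

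KAP1-only regions on chromosome 7 lay near other regions, and those on chromosome 2 farther off. The median distance to the nearest control or ZFP57 start was 671 bp on chromosome 7, and 1 of 136 regions was more than 10 kb away. On chromosome 2 the median was 4186 bp, with 16 of 48 (33.3%) more than 10 kb away. The proximal and distal chromosome 13 blocks had medians of 2358 and 1175 bp, with 14 of 81 (17.3%) and 11 of 127 (8.66%) beyond 10 kb. In the whole list the median was 3122 bp and the share beyond 10 kb was 34.2%. The blocks are denser than most of the genome, which shortens such distances.

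KAP1-only regions were often near other KAP1 regions. Another KAP1 start lay within 1 kb of 96 of the 136 on chromosome 7 (70.6%), 45 of 81 in the proximal chromosome 13 block (55.6%), 24 of 48 on chromosome 2 (50%) and 59 of 127 in the distal chromosome 13 block (46.5%), compared with 33.6% in the whole list. Joining KAP1-only regions within 5 kb of each other gave 26 runs on chromosome 2, 43 on chromosome 7, 31 in the proximal and 66 in the distal chromosome 13 block. Runs of 1 region made up 18, 18, 17 and 38 of them. In each block most KAP1-only regions therefore belonged to runs of 2 or more, for which no genome-wide share is given here. The blocks were chosen by their KAP1 counts and are dense in KAP1 regions, which by itself brings KAP1 starts closer together. On chromosome 7 the repeated stretches also count similar neighbours more than once.

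The proximal chromosome 13 block held a cluster made of KAP1 regions alone. Between 62282677 and 62287743, over 5.07 kb, 10 KAP1 regions were listed and no control or ZFP57 region. Their starts were at 62282677, 62283067, 62283326, 62283691, 62283825, 62284423, 62285122, 62285373, 62285642 and 62287594. The nearest ZFP57 region ended 12025 bp before the cluster and the next began 37128 bp after it. For control the gaps were 12060 and 59995 bp. Genome-wide there were 29 runs of 10 or more KAP1-only regions among 6206, and this was the 1 run of that size without a control or ZFP57 region inside it.

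A longer run in the same block, from 62628035 to 62649519, held 12 KAP1-only regions among 16 KAP1, 5 control and 2 ZFP57 regions over 21.5 kb. These 2 runs lie in the 2 steps with the largest KAP1 excess of the block. The KAP1-only regions farthest from the other lists started at 62385502 and 62293857, with 24.6 and 23.4 kb to the nearest other start.

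On chromosome 2 the largest run, from 177086766 to 177105865, held 10 KAP1-only regions among 15 KAP1, 6 control and 6 ZFP57 regions over 19.1 kb. Of 3 runs with 4 members each, those from 177028657 to 177030798 and from 177338851 to 177340992 lie in the 2 places joined by the shift of 310193 bp. In the first of them the nearest control start was 4675 to 6667 bp away and the nearest ZFP57 start 202 to 923 bp away, and in the second 6170 to 7704 bp and 229 to 923 bp. Neither run had a control region inside it. The most isolated KAP1-only region of the block, at 175809266 to 175809415, lay 405 kb from the nearest other start, and the next, at 175091529 to 175091678, lay 109 kb away.

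On chromosome 7 the largest runs mixed all 3 lists. The run from 10586437 to 10606483 held 15 KAP1-only regions among 39 KAP1, 22 control and 26 ZFP57 regions over 20.0 kb. The run from 9178428 to 9197691 held 14 among 38 KAP1, 21 control and 23 ZFP57 regions over 19.3 kb. The former lies in the mirrored stretch and the latter in the first stretch. The most isolated KAP1-only regions started at 10487268, 15.5 kb from another start, and at 9842805, 9.28 kb away.

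In the distal chromosome 13 block the largest KAP1-only run had fewer members than the largest of each other block. It ran from 65571403 to 65580725 and held 6 KAP1-only regions among 7 KAP1 regions, with 1 ZFP57 and 0 control regions over 9.32 kb. Of 3 runs with 5 members, the one from 66527975 to 66539700 held 9 KAP1, 4 control and 5 ZFP57 regions. Genome-wide, 156 of 6206 runs had 5 or more members. KAP1-only regions at 65362087 and 66328511 were the farthest from the other lists, at 31.3 and 21.0 kb.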

How the data were processed

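The authors deposited a list of regions per library, holding chromosome, start and end and no count, score or height. Per the submitters' processing notes, Bowtie and build mm9 were used; which program and threshold called the regions, how reads mapping to several places were treated and whether a control was subtracted is not given in the sources used here. A region joined a block by its listed start, and printed starts are 1-based. Overlap was counted from 1 bp, among regions of the whole chromosome. KAP1-only regions were those with no control or ZFP57 start within 150 bp. Recurring layouts were sought as the distance (over 5 kb) or mirrored sum shared by most pairs of starts within 5 bp. A mirrored sum within 100 bp was sought for the mirrored stretch of chromosome 7 alone. Partners were then matched one to one within 100 bp. Shares and ratios carry exact (Clopper-Pearson) intervals, medians order-statistic intervals. The code was tested on simulated lists. No test was made, since each group holds 1 library. The named steps, runs, isolated regions and recurring distances follow a written rule: the extremes of each kind in each block. The single starts of the 10-region run, the tied runs and the 3 stretches on chromosome 7 were picked after their values were seen. The blocks and measures were chosen with earlier results of these data known. Python 3.11.15, numpy 2.4.6, pandas 2.3.3, scipy 1.17.1 and matplotlib 3.10.9 were used.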

Additional observations from a re-analysis of the deposited data

How the results depend on the processing

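The alternatives below keep all libraries. No paired analysis was possible because the 3 groups have a single library apiece. Those that leave out stretches of chromosome 7 were chosen after seeing the data. Of 98 alternative values, 67 stayed within the interval of the value reported; the causes of the other changes were not tested beyond what the settings do by construction. Merging touching regions, shifting the steps by 50 kb or using steps of 50 or 200 kb moved no value out of its interval. The KAP1-only share at a start distance of 75 bp was 75.7% on chromosome 2, 50.8% on chromosome 7, 76.2% and 47.2% in the proximal and distal chromosome 13 blocks, and 50.7% in the whole list. At 500 bp it was 50% on chromosome 2, 23.4% on chromosome 7 27.3% and 55.6% in the distal and proximal chromosome 13 blocks and 33.0% in the whole list, and at 1000 bp 39.2%, 15.1%, 21.7%, 46.0% and 27.9%. The share in all 3 lists with 75 bp of overlap was 31.6% (control), 40.8% (ZFP57) and 22.5% (KAP1) on chromosome 7, 24.9%, 32.2% and 18.7% in the distal chromosome 13 block, and 2.94% for ZFP57 on chromosome 2. With midpoints within 500 bp it was 65.1%, 79.6% and 55.7% on chromosome 7, 54.9%, 65.4% and 46.6% in the distal block, and 35.7% (ZFP57) and 19.0% (KAP1) in the proximal block. The whole KAP1 list gave 26.7% and 51.2% under these rules. Whole-list shares of control and ZFP57 were not made under them. The whole-list shares of control and ZFP57 given earlier are for an overlap of 1 bp and are not comparable. Divided by list length, KAP1 exceeded control in 69.2% of occupied steps on chromosome 2 and 100% on chromosome 7. In the proximal and distal chromosome 13 blocks it did so in 90.0% and 94.4%. This division gives each KAP1 region more weight than a control region, because the KAP1 list is shorter. No genome-wide share was made under it, and the genome-wide 11.4% above is for undivided counts. Without the second and mirrored stretches of chromosome 7 the median spacing there was 1699 bp for control and 823 bp for KAP1. Since neither depth nor calling threshold is stated, counts of different lists are not measures of binding.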
